A study of Mus musculus with 84 samples.

Results

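The hearts of ob/ob mice and of wild-type (WT) mice, both kept on a normal diet, were compared by RNA sequencing. The comparison takes the 3 heart libraries labelled ob/ob and normal diet and the 3 heart libraries labelled WT and normal diet, 6 of the 84 libraries of a study that sampled 7 tissues from each of 12 mice. The ob/ob mouse carries a mutation in the leptin gene, Lep, that leaves every tissue without working leptin throughout life, so an effect of lacking leptin and an effect of the obesity that follows cannot be told apart here. The mice were dissected after 20 weeks, which is not further described as age or as time on the diet, and no strain, sex or hour of dissection is given in the sources used here. A further 3 ob/ob and 3 WT hearts came from mice on a high-fat diet. They share an estimate of the spread with the normal-diet hearts and are set beside them in the last part.

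Leptin is a hormone made by fat cells that signals energy stores to the brain and, without it, mice overeat, use less energy and become obese and insulin resistant. The heart takes most of its energy from fatty acids, burns glucose, lactate and ketone bodies as well, and in obesity is supplied with more lipid than it oxidises, a state studied as diabetic or lipotoxic cardiomyopathy. Cardiac muscle cells provide most of the RNA of a whole heart, and endothelial cells, fibroblasts and resident macrophages provide most of the rest. In such bulk tissue, fewer cells of a type and less RNA per cell cannot be told apart.

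The 6 mice differed widely in weight and fat. Body weight, whose unit is not named, was 32.1 ± 0.153 (SD, n = 3) in WT and 68.9 ± 2.10 (SD, n = 3) in ob/ob mice, and the fat reading from body composition was 7.56 ± 1.60 against 41.5 ± 3.20. Total cholesterol was 111 ± 6.03 mg/dL in WT and 258 ± 10.1 mg/dL in ob/ob mice. The groups did not overlap in any of these measures, and each gave p = 0.1 in an exact two-sided permutation test (adjusted p = 0.163 over 13 measures), the smallest p that 3 mice against 3 allow. Lean mass, 22.1 ± 1.47 against 22.6 ± 1.12, overlapped, and no heart weight was recorded in the tables used here.

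The 6 hearts held 10499528 to 11941625 gene counts each, of which the 10 most abundant genes made up 33.8% to 40.2%. CPM below are counts scaled by library size. The summed CPM of 10 cardiac muscle markers, Myh6 and Tnnt2 among them, ran from 32058 to 36436 in WT and from 39179 to 40394 in ob/ob hearts, without overlap. Those of 6 ventricular markers, such as Myl2, ran from 16859 to 22670 and from 19996 to 22967, and those of 8 atrial markers only from 43.0 to 63.1 and from 32.4 to 44.8. In the test described below 1 of the 10 cardiac muscle markers was higher. The gap in their sums depends on the TMM scaling factors, 1.03 to 1.04 in WT and 0.902 to 0.993 in ob/ob libraries. With these factors undone, the sums of WT and ob/ob hearts overlap. The atrial gene Sln and the airway and thymus markers had no counts in any of the 6 libraries. Erythroid markers summed to 4572.4 CPM in WT library 1 and to between 1118.5 and 2873.4 in the other 5. Lep itself had 7, 0 and 1 counts in WT and 5, 2 and 0 in ob/ob hearts, too few to test, so it does not check the genotype labels.

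Of 13673 genes tested, 1742 (12.7%) passed an adjusted p of 0.05 in edgeR's quasi-likelihood test, 856 (6.26%) higher and 886 (6.48%) lower in ob/ob hearts. Log2 differences below are ob/ob minus WT with their standard error (SE), from 3 hearts against 3, and the adjusted p is over all genes tested. Among the called genes, 297 (2.17%) differed at least 2-fold, 119 upwards (0.87%) and 178 downwards (1.3%). An unadjusted p under 0.05 was found for 3857 genes (28.2%), and DESeq2 called 1540 (11.3%). The 3 ob/ob libraries lay wholly outside the range of the 3 WT libraries for 4311 genes (31.5%), 1697 of them called (12.4%). Nearly all of the 1742 called genes are thus without overlap, so a lack of overlap named below adds little to a call. The median log2 difference of all genes was −0.01. When libraries were scaled by their plain totals, it moved to −0.12 and the calls split into 418 higher and 1477 lower, so small positive list medians below turn negative on that scale where stated. Leaving out 1 library at a time left 1108 to 1275 calls. The count fell by more than 1.5 times without WT library 1 (1141), WT library 3 (1108) or ob/ob library 2 (1117). The labels do not say whether the replicates were handled in separate batches, and the p-values measure only the spread between these samples.

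The gene lists described below differed in how many members passed the test. Their counts are to be read beside the shares of all genes called, 6.26% higher and 6.48% lower. Clock genes and glycogen genes had calls only upwards, interferon response, inflammation, cell division and macrophage marker genes only downwards, and the extracellular matrix mostly downwards. Lists of the heat shock, unfolded protein and immediate early responses had called members on both sides.

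**Figure D1:**
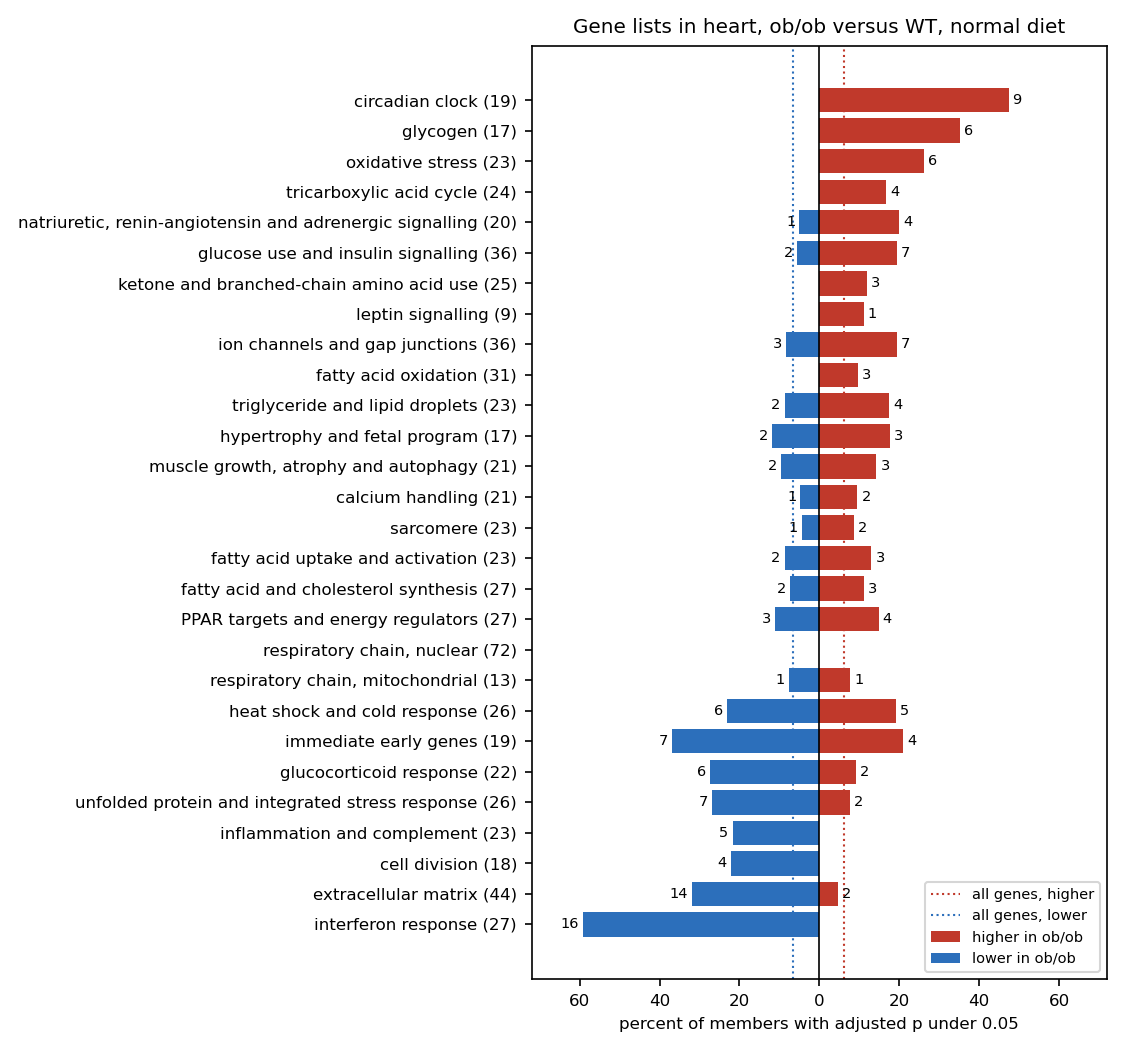
Percent of tested members of each gene list with an adjusted p under 0.05 (x axis), to the right for members higher in ob/ob hearts and to the left for members lower, on normal diet. The vertical lines mark the share of all 13673 genes called, 6.26% higher and 6.48% lower. The interferon list reaches farthest to the left (16 of 27) and the clock list farthest to the right (9 of 19).

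The circadian clock is a feedback loop in which BMAL1 (Arntl) and CLOCK switch on Per and Cry genes, whose proteins then hold BMAL1 and CLOCK back. Output regulators such as Dbp, Tef and Hlf carry the rhythm to metabolic genes. In ob/ob hearts 9 of the 19 clock genes tested were called higher and none lower, with a median log2 difference of 0.55 over the list. Per2, a repressor of the loop at chr1:91415982-91459324 on the minus strand (GRCm38), was at 7.09, 6.01 and 6.67 CPM in the 3 WT hearts and at 19.2, 15.4 and 18.3 CPM in the 3 ob/ob hearts. All ob/ob hearts stood well above all WT hearts (log2 difference 1.42 ± 0.12, adjusted p = 6.04e-06). Ciart, a repressor of CLOCK and BMAL1, was at 2.11, 2.96 and 1.42 CPM in WT and at 7.96, 6.09 and 7.43 CPM in ob/ob hearts, also without overlap (1.73 ± 0.22, adjusted p = 0.000156).

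Tef, an output regulator of the PAR bZIP family, was at 71.9, 67.6 and 61.4 CPM in WT and at 124, 125 and 117 CPM in ob/ob hearts (0.87 ± 0.10, adjusted p = 6.23e-05). The 3 hearts of each genotype lay close together for this gene and far from the other genotype. The repressor Cry2 was higher by 0.69 ± 0.13, and Bhlhe41 and Bhlhe40, which encode the transcriptional repressors DEC2 and DEC1, by 0.77 ± 0.15 and 0.61 ± 0.14. Dbp, Hlf and Nfil3 also passed, at 0.77, 0.61 and 0.75. Each of these calls was lost with some library left out. Nfil3 missed the threshold without ob/ob library 1 (adjusted p = 0.0663). Hlf missed it without WT library 1 (0.0628), ob/ob library 1 (0.077) or ob/ob library 3 (0.0538). Dbp missed it without WT library 1, WT library 2, ob/ob library 1 or ob/ob library 3 (adjusted p from 0.0538 to 0.0749). Its log2 difference was then 0.70 to 0.76. Without ob/ob library 1 the list had 6 called members.

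Not every gene of the loop passed the test. Arntl was at 19.1, 18.8 and 14.4 CPM in WT and at 11.1, 12.1 and 15.9 CPM in ob/ob hearts, overlapping, with a log2 difference of −0.41 ± 0.19 (adjusted p = 0.16). Per1 (0.29 ± 0.15, adjusted p = 0.231) and Nr1d1, which encodes the repressor REV-ERBα (0.20 ± 0.16, adjusted p = 0.428), did not pass either. Because 1 dissection gives 1 moment of the day and the hour is not given here, a change in the timing and a change in the level of a rhythm cannot be told apart. Tef, Cry2, Bhlhe41, Bhlhe40 and Dbp each overlap a gene on the opposite strand, and reads of such pairs cannot be told apart in these counts, which were made without a strand option.

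The E-box, with the letters CACGTG, is the sequence that CLOCK and BMAL1 are known to bind. RefSeq promoter sequences (GRCm38.p6) held an entry for 7 of the 9 called clock genes, Per2 not among them, and the 250 bases before the start of 3 of those 7 held CACGTG, a palindrome and so the same on both strands. Among all 19 clock genes tested, 5 of 16 with an entry held it, against 6.86% of the 27025 genes in the table, a gene with several entries counting when any of them held it. The 4 sequences below are those of called clock genes with and without the letters, printed 5′ to 3′ on the gene's strand with CACGTG in capitals. Tef (chr15:81802423-81802672, plus strand) has it once, with 121 bases between it and the start of the more upstream of its 2 entries. Ciart (chr3:95882229-95882478, minus strand) has it 3 times, with 110, 52 and 38 bases to the start. Bhlhe41 (chr6:145865421-145865670, minus strand) has it once, with 147 bases to the start, and Cry2 (chr2:92434070-92434319, minus strand) does not have it in this window.
Ciart: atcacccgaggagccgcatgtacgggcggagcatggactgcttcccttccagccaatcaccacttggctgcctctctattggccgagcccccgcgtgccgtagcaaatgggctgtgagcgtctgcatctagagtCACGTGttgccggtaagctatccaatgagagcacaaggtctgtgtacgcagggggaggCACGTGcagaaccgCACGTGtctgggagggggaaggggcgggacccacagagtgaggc
Tef: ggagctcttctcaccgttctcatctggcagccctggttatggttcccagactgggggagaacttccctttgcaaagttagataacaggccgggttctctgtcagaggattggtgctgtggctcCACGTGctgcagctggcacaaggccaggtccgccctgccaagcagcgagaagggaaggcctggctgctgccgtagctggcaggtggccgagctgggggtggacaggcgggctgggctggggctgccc
Bhlhe41: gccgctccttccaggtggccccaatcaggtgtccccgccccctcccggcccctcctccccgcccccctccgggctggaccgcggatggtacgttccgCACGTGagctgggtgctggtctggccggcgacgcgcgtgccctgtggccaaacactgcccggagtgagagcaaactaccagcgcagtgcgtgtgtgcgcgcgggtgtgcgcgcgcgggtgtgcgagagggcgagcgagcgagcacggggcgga
Cry2: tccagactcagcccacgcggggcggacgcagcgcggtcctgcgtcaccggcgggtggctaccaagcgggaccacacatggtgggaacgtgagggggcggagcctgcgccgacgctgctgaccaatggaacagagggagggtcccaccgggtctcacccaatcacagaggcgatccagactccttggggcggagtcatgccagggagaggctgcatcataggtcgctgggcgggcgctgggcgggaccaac
A match of letters is a description of the sequence and not evidence that the site is bound, and the windows without a match say nothing of sites elsewhere. The list was chosen as clock genes, so its share of matches describes the list and not the difference between ob/ob and WT hearts.

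**Figure D2:**
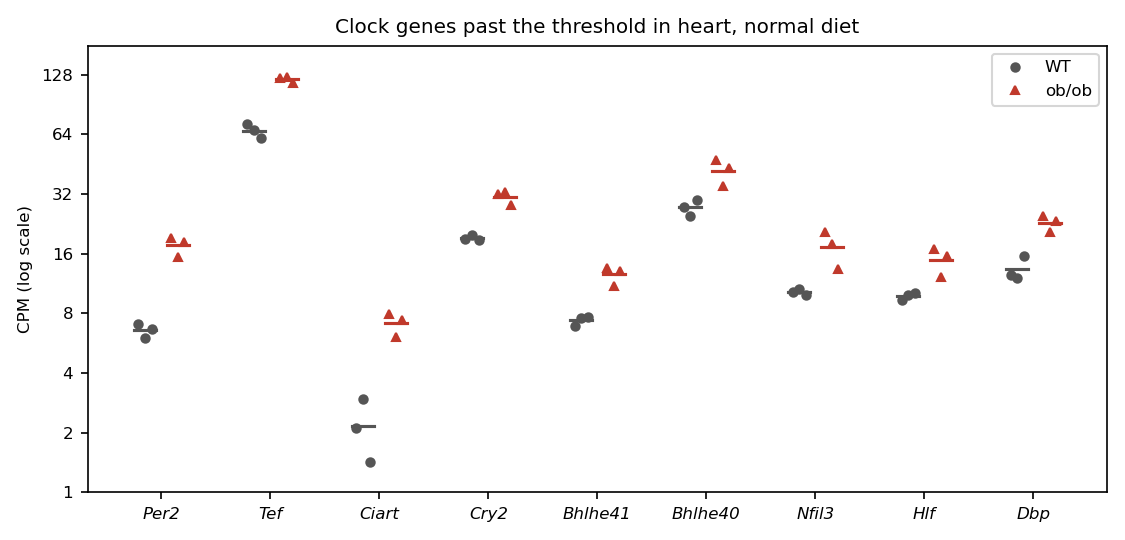
CPM (y axis, log scale) of the 9 clock genes called in hearts on normal diet, with circles for the 3 WT libraries, triangles for the 3 ob/ob libraries and a line at each group mean. The ob/ob libraries lie above the WT libraries in all 9, most widely for Per2 and Ciart. These genes were drawn because they were called, and 1697 of all 1742 called genes do not overlap between the groups.

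Interferon response genes were lower in ob/ob hearts. These genes are switched on when cells sense type I or type II interferon, and their products restrain viruses and intracellular microbes. All 27 listed genes were tested, 16 were called lower and none higher, 26 had a negative log2 difference and the median was −0.62. Gbp2, a guanylate-binding protein that coats vacuoles of invading microbes, was at 18.1, 25.7 and 17.8 CPM in WT and at 11.6, 8.83 and 8.45 CPM in ob/ob hearts. No ob/ob heart reached the lowest WT heart (−1.09 ± 0.15, adjusted p = 0.000258). Gbp7, of the same family, was at 10.7, 17.6 and 13.3 CPM in WT and at 6.50, 5.68 and 4.98 CPM in ob/ob hearts (−1.28 ± 0.18, adjusted p = 0.000265).

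WT library 2 was the highest of the 3 for both Gbp2 and Gbp7, while Bst2 did not show this. Bst2, tetherin, which keeps budding virus on the cell surface, was at 24.1, 25.04 and 23.8 CPM in WT and at 13.4, 12.3 and 15.5 CPM in ob/ob hearts (−0.82 ± 0.12, adjusted p = 0.000516). Ifi27, Ifi44, Gbp3 and Xaf1 fell by 0.62, 1.33, 0.86 and 0.65 on the log2 scale and kept their calls under every setting and left-out library tried. Isg15, a ubiquitin-like modifier, was lower (−0.94 ± 0.22, adjusted p = 0.0118), but missed the threshold without WT library 2 (adjusted p = 0.051). Of the pathway's own factors, Irf9 (−0.53 ± 0.14, adjusted p = 0.0183) passed and Irf7 (−0.42 ± 0.14, adjusted p = 0.0597) did not. Irf9 missed the threshold without WT library 2 (0.0505), WT library 3 (0.062) or ob/ob library 2 (0.0746). The list's count was 8 without WT library 2 and 10 without WT library 3. Gbp, Oas and Ifit genes have close relatives, and reads that match several of them were not counted, so their single values are uncertain.

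The letters GAAANNGAAA, the core of the interferon-stimulated response element, were searched on both strands of the same promoter windows. They occurred in 8 of the 12 called interferon genes that had an entry and in 12 of 22 tested, against 3.46% of all genes in the table, counted in the same way. Below are the windows of Gbp2 (chr3:142620413-142620662, plus strand) and Gbp7 (chr3:142530086-142530335, plus strand), the genes of the list with the smallest p, with the match in capitals. In both it lies on the opposite strand and so reads TTTCNNTTTC, with 49 bases to the start in Gbp2 and 43 in Gbp7.
Gbp2: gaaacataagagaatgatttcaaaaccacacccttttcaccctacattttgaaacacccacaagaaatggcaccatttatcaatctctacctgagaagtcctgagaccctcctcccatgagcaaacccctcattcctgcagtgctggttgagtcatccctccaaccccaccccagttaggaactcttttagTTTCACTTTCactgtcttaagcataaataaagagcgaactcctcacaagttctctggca
Gbp7: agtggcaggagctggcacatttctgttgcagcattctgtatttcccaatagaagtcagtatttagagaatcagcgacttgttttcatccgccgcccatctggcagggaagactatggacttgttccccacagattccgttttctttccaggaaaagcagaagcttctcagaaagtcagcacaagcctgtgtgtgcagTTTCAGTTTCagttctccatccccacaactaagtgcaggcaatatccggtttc
These matches too are described as letters only, and the data hold no measure of binding. The list was chosen by response to interferon, so its share of matches is not evidence about the difference between genotypes.

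Among 23 tested genes of inflammation and complement, 5 were called lower and none higher, and 22 had a negative log2 difference. C7, the complement component that begins insertion of the attack complex into membranes, lies at chr15:4988762-5063773 on the minus strand. It was at 12.3, 17.4 and 12.7 CPM in WT and at 2.52, 3.35 and 2.96 CPM in ob/ob hearts. The ob/ob hearts all lay far below the WT hearts (−2.26 ± 0.21, adjusted p = 8.95e-06). Ccl9, a chemokine that attracts myeloid cells, fell by 0.93 ± 0.17 (adjusted p = 0.00219). Cxcl12 (−0.66, adjusted p = 0.0132) and Nfkbia, the inhibitor that NF-κB itself induces (−0.78, adjusted p = 0.0132), were also called. Cxcl12 missed the threshold without ob/ob library 1 (0.0571) or ob/ob library 2 (0.0638), and Nfkbia without WT library 2 (0.0611) or ob/ob library 2 (0.0511). The list's count was 3 without WT library 2 or ob/ob library 1 and 2 without ob/ob library 2.

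Macrophage markers moved with these genes. Of 13 markers, all detected and tested, 7 were called lower and none higher, with a median of −0.45, and their summed CPM was 680.8 to 898.5 in WT and 460.4 to 641.2 in ob/ob hearts, without overlap. Adgre1, which encodes the macrophage surface protein F4/80, was at 18.3, 30.1 and 18.8 CPM in WT and at 10.5, 6.80 and 9.88 CPM in ob/ob hearts (−1.30 ± 0.20, adjusted p = 0.000647). Mrc1, the mannose receptor of resident macrophages, fell by 0.81 ± 0.12 (adjusted p = 0.000371), and Ptprc, which encodes the pan-leukocyte protein CD45, by 0.78 ± 0.17 (adjusted p = 0.00644). The marker count was 2 without WT library 1, WT library 2 or ob/ob library 2, and 4 without ob/ob library 1. Lymphocyte and granulocyte markers, 11 genes that include Ptprc, summed to 11.7 to 15.98 CPM in WT and 7.92 to 10.8 CPM in ob/ob hearts. Only 5 of them had enough counts to test, and Ptprc was the 1 called lower. What part the macrophage markers have in the interferon and inflammation results was not tested. Fcrls, a gene of resident macrophages and microglia, was among the 12 largest decreases of the genes taken by the naming rule, which asks for a call, no overlap between the groups and a minimum level: 11.3, 14.7 and 7.59 CPM in WT and 3.88, 2.84 and 3.29 CPM in ob/ob hearts (−1.74 ± 0.23, adjusted p = 0.000174).

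**Figure D3:**
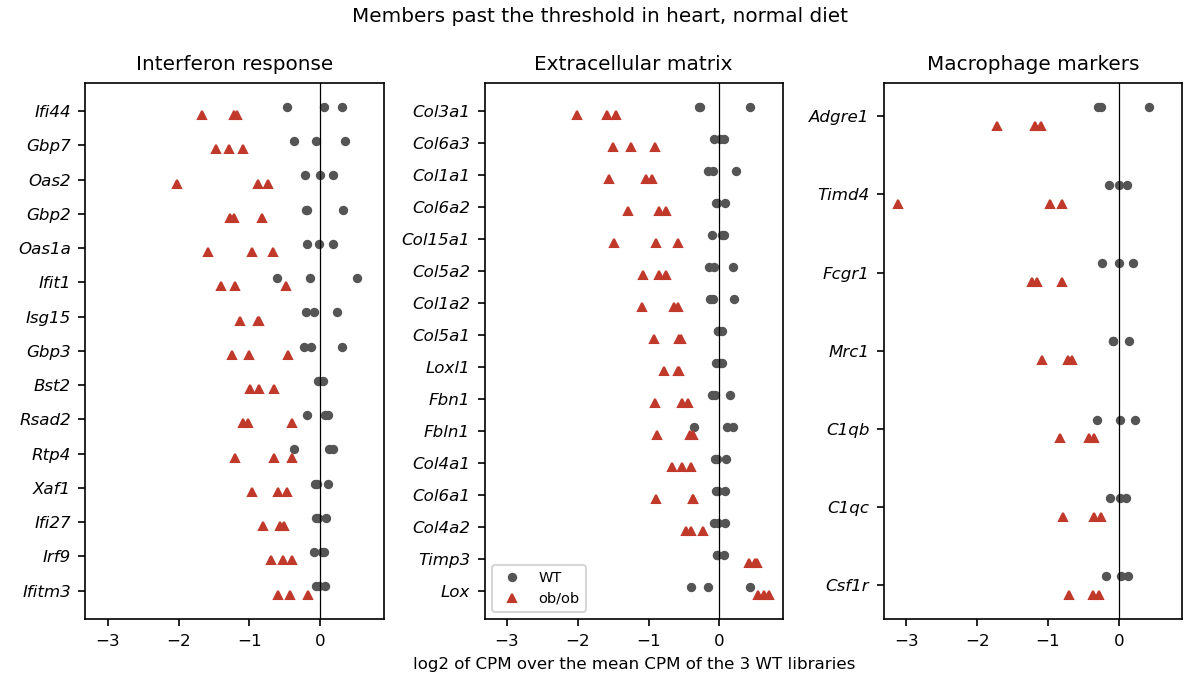
Log2 of the CPM of each library over the mean CPM of the 3 WT libraries (x axis) for the called members (y axis) of the interferon response, extracellular matrix and macrophage marker lists, on normal diet, with circles for WT and triangles for ob/ob libraries. Nearly all members lie to the left in ob/ob hearts, and the 2 matrix genes called higher lie to the right. A called member that is not reported here is not drawn.

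Genes of the extracellular matrix, the collagen and fibrillin scaffold that fibroblasts lay down between muscle cells, were lower in ob/ob hearts in 14 of 44 tested members and higher in 2. In all, 37 of the 44 had a negative log2 difference and the median was −0.33. Col3a1, a chain of fibrillar collagen III at chr1:45311538-45349706 on the plus strand, was at 201, 328 and 199 CPM in WT and at 88.1, 59.9 and 80.3 CPM in ob/ob hearts. The ob/ob hearts all lay far below the WT range, with WT library 2 the highest. The difference was −1.67 ± 0.19 (adjusted p = 7.42e-05). Col1a1, of collagen I, was at 65.4, 81.9 and 62.2 CPM in WT and at 33.9, 23.7 and 36.1 CPM in ob/ob hearts (−1.16 ± 0.15, adjusted p = 0.000186).

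Other collagens and a crosslinking enzyme were lower too. Col6a3 and Col6a2, of the beaded-filament collagen VI around muscle fibres, fell by 1.19 ± 0.15 and 0.94 ± 0.13, and Col5a2, of collagen V, by 0.89 ± 0.13. Col15a1, a basement membrane collagen, was lower (−0.93 ± 0.19), as was Fbn1, fibrillin 1 of the elastic microfibrils (−0.61 ± 0.13). Loxl1, a lysyl oxidase that crosslinks elastin, was at 41.3, 39.0 and 40.2 CPM in WT and at 26.9, 23.4 and 27.0 CPM in ob/ob hearts (−0.64 ± 0.10, adjusted p = 0.00055). Timp3, an inhibitor of the proteases that degrade matrix, went the other way with 126, 136 and 127 CPM in WT and 188, 173 and 183 CPM in ob/ob hearts (0.49 ± 0.09, adjusted p = 0.00283). It lies within the gene Syn3, on the opposite strand. Postn and Cilp, which mark activated fibroblasts in injured hearts, did not pass (−1.06 ± 0.36, adjusted p = 0.0627, and −1.59 ± 0.51, adjusted p = 0.0515). Postn overlapped between the groups, with WT library 2 far above the others (21.3, 68.2 and 26.0 CPM in WT and 21.6, 15.9 and 17.7 CPM in ob/ob hearts). With 1 library left out, 10 to 15 matrix genes were called lower, and 1 higher in every case but that without WT library 2 (3 higher).

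General fibroblast markers did not move as a group. Of 9 tested, which include Pdgfra, Dcn and Tcf21, only Col1a1 passed, and their summed CPM overlapped, at 2934.8 to 3391.7 in WT and 2725.2 to 3344.2 in ob/ob hearts. Endothelial markers summed to 1004.4 to 1042.2 and 871.23 to 1085.7 CPM. Among 11 of them 2 were called lower, including Tek, the angiopoietin receptor TIE2 (−0.46 ± 0.10, adjusted p = 0.00699), and 1 was lower without WT library 3 or ob/ob library 1. Without ob/ob library 2 there were 2 higher and 1 lower, and without ob/ob library 3 there were 3 lower. Cell division genes were low in all hearts, and of 18 tested 4 were called lower, a count that was 0 without WT library 3 or ob/ob library 2 and 1 without WT library 1 or ob/ob library 3. Wt1, a transcription factor of the epicardium and of some endothelial cells, was higher. It was at 5.15, 5.66 and 3.92 CPM in WT and at 11.9, 8.93 and 17.8 CPM in ob/ob hearts (1.41 ± 0.21, adjusted p = 0.00056), while the other 5 markers of the outer heart layer did not pass.

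The overloaded heart is known to switch on fetal genes, natriuretic peptides among them, and to remodel its muscle. Of 17 hypertrophy and fetal program genes tested, 3 were higher and 2 lower in ob/ob hearts, beside 6.26% and 6.48% of all genes tested. The natriuretic peptide genes, the usual signs of wall stress, did not pass. Nppa was at 27.6, 11.8 and 24.9 CPM in WT and at 1.94, 19.9 and 4.31 CPM in ob/ob hearts, with overlap (−1.34 ± 0.70, adjusted p = 0.222). Nppb was at 69.3, 58.3 and 135 CPM in WT and at 33.9, 42.8 and 79.9 CPM in ob/ob hearts (−0.74 ± 0.30, adjusted p = 0.109). Myh7, the slow myosin heavy chain that returns in failing rodent hearts, was at 74.2, 125 and 75.5 CPM in WT and at 129, 87.9 and 108 CPM in ob/ob hearts (0.24 ± 0.22, adjusted p = 0.506).

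Skeletal α-actin, Acta1, another fetal gene, fell. It was at 58.4, 78.8 and 127 CPM in WT and at 37.7, 20.2 and 32.5 CPM in ob/ob hearts (−1.54 ± 0.31, adjusted p = 0.00399). The stress cytokine gene Gdf15 was lower as well, at 8, 11 and 11 counts in WT and 1, 2 and 3 counts in ob/ob hearts, too few to give its size closely. Xirp1, an actin-binding protein of the intercalated disc, was at 83.6, 91.2 and 100.1 CPM in WT and at 159.5, 176 and 159 CPM in ob/ob hearts (0.85 ± 0.11, adjusted p = 0.000174). Fhl1, a stretch-sensing protein of the sarcomere, was higher by 0.47 ± 0.08 (adjusted p = 0.001). Ccn2, a matricellular growth factor induced by stretch and TGF-β, was at 37.9, 67.2 and 49.8 CPM in WT and at 126, 108 and 114 CPM in ob/ob hearts (1.17 ± 0.27, adjusted p = 0.0107), and missed the threshold without WT library 1 (adjusted p = 0.0542).

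In the list of natriuretic, renin-angiotensin and adrenergic signalling, 4 of 20 tested genes were higher and 1 lower. The shares among all genes tested were 6.26% and 6.48%. Agt encodes angiotensinogen, the precursor of angiotensin, and lies at chr8:124556534-124569706 on the minus strand. It was at 1.94, 1.44 and 2.50 CPM in WT and at 12.2, 7.41 and 6.67 CPM in ob/ob hearts, so that the lowest ob/ob heart was above the highest WT heart (2.14 ± 0.34, adjusted p = 0.000888). Agtr1a, the receptor that angiotensin II acts through, was at 23.1, 22.9 and 22.1 CPM in WT and at 29.4, 30.9 and 30.2 CPM in ob/ob hearts (0.41 ± 0.08, adjusted p = 0.00392). Chrm2, the muscarinic receptor by which the vagus nerve slows the heart, was higher by 0.55 ± 0.11 (adjusted p = 0.00481), and Pde4d, a phosphodiesterase that degrades cyclic AMP, by 0.70 ± 0.13 (adjusted p = 0.00237). These 4 calls held with any 1 library left out. The lower gene, Ace, the enzyme that makes angiotensin II, missed the threshold without any 1 library other than ob/ob library 1 (adjusted p from 0.0563 to 0.152). By plain totals 4 were higher and 2 lower.

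Sarcomere, calcium handling and channel genes had calls on both sides. Among all genes tested, 6.26% were called higher and 6.48% lower. Of 23 sarcomere genes 2 were higher and 1 lower, of 21 calcium handling genes 2 were higher and 1 lower, and of 36 ion channel and gap junction genes 7 were higher and 3 lower. Tnnt2, cardiac troponin T of the thin filament, was at 6460.2, 5516 and 6013 CPM in WT and at 8687, 8490.0 and 8616 CPM in ob/ob hearts (0.52 ± 0.10, adjusted p = 0.00356). Myh7b, a minor myosin heavy chain, was at 32.5, 36.0 and 37.5 CPM in WT and at 16.5, 21.2 and 15.6 CPM in ob/ob hearts (−0.995 ± 0.168, adjusted p = 0.00132), and overlaps Trpc4ap on the opposite strand. With 1 library left out the sarcomere count upwards was 1 in 4 of 6 cases (WT library 1, WT library 2, ob/ob library 1 and ob/ob library 2). Among the calcium genes, Casq2, the calcium store protein of the sarcoplasmic reticulum (0.40 ± 0.10, adjusted p = 0.0169), and Jph2, which ties that store to the cell membrane (0.45 ± 0.11, adjusted p = 0.017), were higher. Atp2b4, a calcium pump of the cell membrane, was lower (−0.47 ± 0.14, adjusted p = 0.0368). Casq2 missed the threshold without WT library 1 (0.0517), WT library 2 (0.0521) or ob/ob library 2 (0.0721), Jph2 without WT library 3 (0.0791), ob/ob library 2 (0.0542) or ob/ob library 3 (0.0677), and Atp2b4 without any of 4 libraries (0.0614 to 0.151: WT library 1, WT library 2, ob/ob library 1 and ob/ob library 2). By plain totals 2 calcium genes were higher and 2 lower. Ryr2, the calcium release channel, and Pln, phospholamban, gave 0.22 ± 0.13 (adjusted p = 0.293) and 0.17 ± 0.10 (adjusted p = 0.296).

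Among the channels, Kcnh2, which carries the rapid repolarising potassium current, was at 29.0, 30.4 and 28.1 CPM in WT and at 41.2, 52.7 and 56.8 CPM in ob/ob hearts (0.78 ± 0.12, adjusted p = 0.000575). Scn4b, an auxiliary subunit of sodium channels, went down, at 52.7, 68.1 and 67.4 CPM in WT and 40.6, 42.5 and 38.3 CPM in ob/ob hearts (−0.63 ± 0.13, adjusted p = 0.00422). The groups did not overlap for either gene. Atp1b1, a subunit of the sodium pump that overlaps Nme7 on the opposite strand, was higher by 0.45 ± 0.09 (adjusted p = 0.00491). Kcnj2, the inward rectifier that sets the resting potential, was higher by 0.64 ± 0.15 (adjusted p = 0.00953), but missed the threshold without WT library 3 (0.0506) or ob/ob library 2 (0.0527). The channel list held 3 higher genes without WT library 3 and 4 without ob/ob library 3, 1 lower without WT library 1, ob/ob library 1 or ob/ob library 3, and 5 higher and 7 lower when scaled by plain totals.

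Ppargc1a and Ppara, regulators of energy use, were higher in ob/ob hearts. Ppargc1a encodes PGC-1α, the coactivator of mitochondrial and fatty acid oxidation genes, and lies at chr5:51454250-51567726 on the minus strand. It was at 94.0, 94.2 and 67.0 CPM in WT and at 229, 239.6 and 177 CPM in ob/ob hearts. The lowest ob/ob heart had nearly double the highest WT heart (1.34 ± 0.16, adjusted p = 0.000104). Ppara, the fatty acid-sensing nuclear receptor that works with PGC-1α, was at 22.02, 22.4 and 21.1 CPM in WT and at 37.1, 38.9 and 32.7 CPM in ob/ob hearts (0.73 ± 0.13, adjusted p = 0.0019). Fgf1, a growth factor under PPAR control in fat, was higher by 0.51 ± 0.11, while Retsat, a retinol saturase, and Cyp4b1 were lower (−0.48 ± 0.10 and −0.73 ± 0.15). In the whole list of PPAR targets and energy regulators, 4 of 27 were higher and 3 lower, with a median of 0.06 that was −0.05 when scaled by plain totals. Ppargc1a also stands among the 7 brown adipocyte markers. Their summed level was 714.9 to 914.1 CPM in WT and 936.2 to 951.6 CPM in ob/ob hearts, without overlap. It contains the CPM of Ppargc1a, which did not overlap by itself. Without Ppargc1a the sums of the genotypes overlap, and so do the full sums with the TMM scaling factors undone. The sum of these markers is thus not separate from the Ppargc1a result. Of 4 tested, 2 were called higher, Ppargc1a itself and Cidea, a lipid droplet protein (0.57 ± 0.16, adjusted p = 0.0261), and 1 by plain totals or without WT library 1, WT library 2, ob/ob library 1 or ob/ob library 2. Ucp1, the defining marker of brown fat, had 0.591 CPM in WT library 1 and no counts in the other 5. The part of brown adipocytes in the Ppargc1a and Ppara results was not tested.

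Genes that PGC-1α and PPARα are known to serve are set here beside all genes tested, of which 6.26% were called higher and 6.48% lower. Of 31 fatty acid oxidation genes 3 were higher and none lower (median 0.08, and −0.04 by plain totals). Acadm, a dehydrogenase of medium-chain fatty acids, and the acylcarnitine carrier Slc25a20 were among them, and at most 1 gene of the list was higher with any 1 library left out. Plain totals gave none higher and 2 lower. Cpt1b, the muscle form of the enzyme that commits fatty acids to mitochondria, was at 8.94, 8.26 and 9.09 CPM in WT and 10.8, 8.42 and 7.43 CPM in ob/ob hearts (0.01 ± 0.15, adjusted p = 0.966), with both groups over the same range. Among 72 nuclear genes of the respiratory chain none passed in edgeR. With an unadjusted p under 0.05 there were 4, all higher, DESeq2 called 2, both higher, and edgeR with no low-count filter called 2 of 73, both higher. Of the 13 genes of mitochondrial DNA, mt-Nd6 was higher (0.51 ± 0.13, adjusted p = 0.0132) and mt-Nd3 lower (−0.75 ± 0.19, adjusted p = 0.015), both subunits of complex I. The first missed the threshold without WT library 1 (0.0567) or ob/ob library 2 (0.0755) and overlaps mt-Nd5 on the opposite strand, and the second missed it without WT library 2 (0.0645) or ob/ob library 1 (0.0716).

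Lipid handling genes had calls on both sides, beside 6.26% higher and 6.48% lower among all genes tested. Of 23 fatty acid uptake and activation genes 3 were higher and 2 lower, with 0 higher without WT library 3, 1 lower without WT library 1 or WT library 3, 4 lower without ob/ob library 2, and 1 higher and 6 lower by plain totals. Acsl5, which attaches coenzyme A to fatty acids, was at 20.7, 23.4 and 21.2 CPM in WT and at 14.1, 14.9 and 15.1 CPM in ob/ob hearts (−0.56 ± 0.10, adjusted p = 0.00224). Cd36 and Lpl, the main route of fatty acids into the heart, gave 0.11 ± 0.09 (adjusted p = 0.446) and 0.29 ± 0.11 (adjusted p = 0.1). Of 23 genes of triglyceride storage 4 were higher and 2 lower. Dgat2, which adds the last fatty acid to triglyceride, was at 226, 203 and 203 CPM in WT and at 317, 367 and 264 CPM in ob/ob hearts (0.58 ± 0.12, adjusted p = 0.0037). G0s2, an inhibitor of the triglyceride lipase ATGL, was at 39.8, 28.3 and 38.4 CPM in WT and at 94.0, 77.7 and 64.5 CPM in ob/ob hearts (1.15 ± 0.23, adjusted p = 0.0037).

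Lipe, hormone-sensitive lipase, fell by 0.44 ± 0.10 (adjusted p = 0.00634). The triglyceride list had 2 higher members without WT library 2 or ob/ob library 2 and 1 lower without WT library 2, WT library 3, ob/ob library 1 or ob/ob library 3. Of 27 genes of fatty acid and cholesterol synthesis 3 were higher and 2 lower, and 2 higher and 4 lower by plain totals. Scd4, a stearoyl-CoA desaturase of the heart, was at 12.1, 14.99 and 21.6 CPM in WT and at 32.4, 37.0 and 42.8 CPM in ob/ob hearts (1.21 ± 0.16, adjusted p = 0.000182). The ob/ob hearts all exceeded the WT hearts for Scd4, whereas Scd1 overlapped (0.14 ± 0.15, adjusted p = 0.592). Abca1, the cholesterol exporter, was higher by 0.58 ± 0.13 (adjusted p = 0.00875). With a library left out, the synthesis list had no lower gene in 5 of 6 cases and 1 without ob/ob library 3.

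Genes for glucose, ketones and amino acids had calls mainly upwards. Of 36 genes of glucose use and insulin signalling 7 were higher and 2 lower, and 4 and 4 by plain totals. Pik3r1, the regulatory subunit of PI 3-kinase, was at 69.5, 78.6 and 62.5 CPM in WT and at 127, 145 and 107 CPM in ob/ob hearts (0.85 ± 0.12, adjusted p = 0.000264). The insulin receptor Insr was at 75.9, 82.2 and 82.8 CPM in WT and at 58.6, 65.7 and 55.7 CPM in ob/ob hearts (−0.42 ± 0.10, adjusted p = 0.0122), without overlap, and missed the threshold without ob/ob library 3 (adjusted p = 0.052). Pfkfb1, which makes the activator of phosphofructokinase, was higher by 0.71 ± 0.16 (adjusted p = 0.00742). Slc2a4, the insulin-responsive transporter GLUT4, was higher by 0.40 ± 0.10 (adjusted p = 0.0183) but missed the threshold without WT library 2 (0.0564), WT library 3 (0.0713) or ob/ob library 2 (0.0839). Leaving out 1 library left 2 or 3 higher genes in 5 of 6 cases, 6 without ob/ob library 3, and 0 to 2 lower. Pdk4, the kinase that shuts pyruvate out of the cycle, did not pass (−0.53 ± 0.28, adjusted p = 0.23).

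Of 17 glycogen genes 6 were higher and none lower. That count was 1 without WT library 1, WT library 3 or ob/ob library 2, 2 without ob/ob library 1, 3 without WT library 2, and 2 by plain totals. Of 25 genes of ketone and branched-chain amino acid use 3 were higher and none lower (median 0.20, and 0.09 by plain totals). Slc16a1, the carrier of lactate and ketone bodies MCT1, was at 103, 117 and 122 CPM in WT and at 194, 202 and 162 CPM in ob/ob hearts (0.71 ± 0.13, adjusted p = 0.00213). Aldh6a1, of valine breakdown, was higher by 0.41 ± 0.09 (adjusted p = 0.00852).

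Of 24 genes of the tricarboxylic acid cycle and its partners 4 were higher and none lower, and 23 of the 24 had a positive log2 difference (median 0.17, and 0.06 by plain totals). Got1, the cytosolic aspartate aminotransferase of the malate shuttle, was at 625, 557 and 598 CPM in WT and at 854, 873 and 802 CPM in ob/ob hearts (0.51 ± 0.09, adjusted p = 0.00238). Nnt, the mitochondrial transhydrogenase that makes NADPH, lies at chr13:119335448-119408997 on the minus strand. It was at 331, 336 and 367 CPM in WT and at 756, 794 and 725 CPM in ob/ob hearts, so that each ob/ob heart had about double the highest WT value or more (1.14 ± 0.09, adjusted p = 3.13e-06). Nnt is known to differ between inbred substrains, some of which carry a deletion in it. No strain is given in the sources used here, so genotype and strain background cannot be told apart for this gene or for any other difference between ob/ob and WT hearts. Only 2 genes of the list passed without WT library 2 or any 1 ob/ob library.

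**Figure D4:**
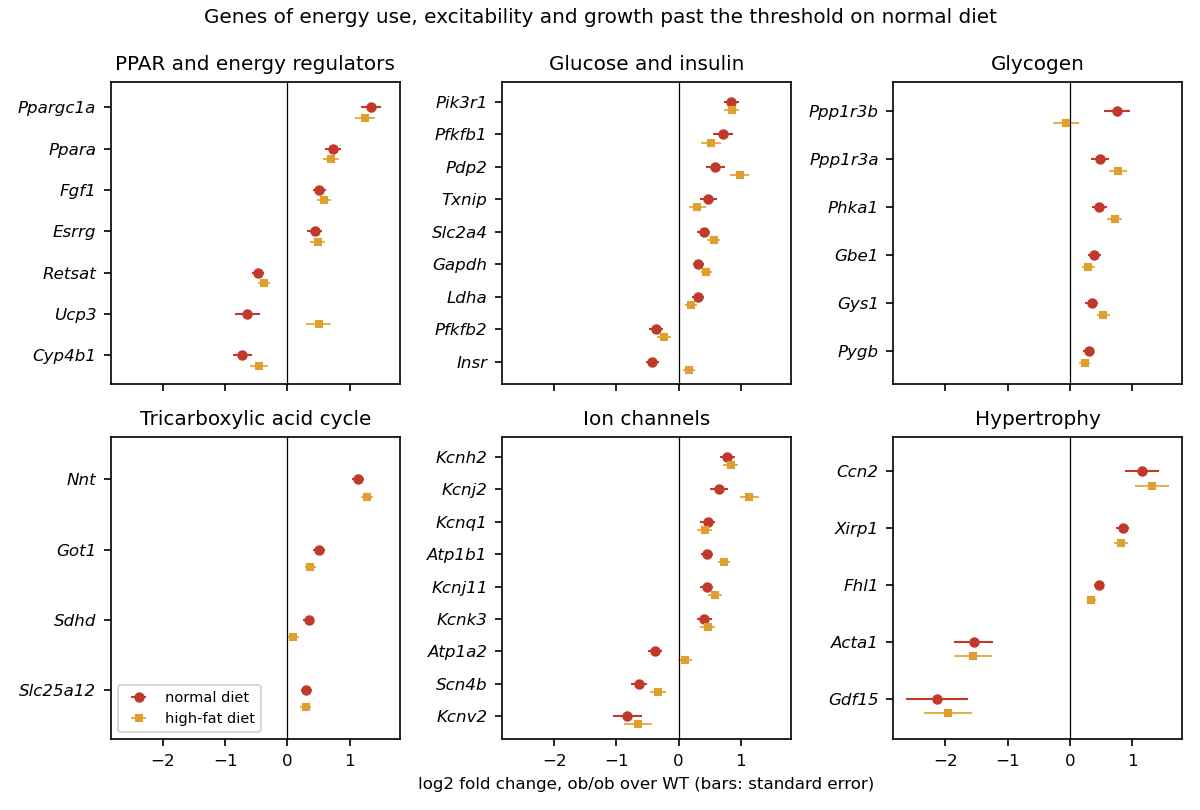
Log2 fold change of ob/ob over WT hearts (x axis) with its SE (bars) for the called members (y axis) of 6 lists: PPAR targets and energy regulators, glucose and insulin, glycogen, tricarboxylic acid cycle, ion channels, and hypertrophy. Circles give the normal diet and squares the high-fat diet. Ppargc1a and Nnt are higher on both diets, Insr and Ucp3 are below 0 on normal diet and above 0 on high-fat diet, and Kcnh2 and Scn4b lie on opposite sides of 0. A called member that is not reported here is not drawn.

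Stress lists had members on both sides. Of 26 genes of the heat shock and cold response 5 were higher and 6 lower, and 3 and 10 by plain totals. Cirbp and Rbm3, RNA-binding proteins that rise when cells are cooled, were both higher. Cirbp was at 37.0, 37.2 and 33.5 CPM in WT and at 78.8, 75.3 and 91.1 CPM in ob/ob hearts (1.19 ± 0.13, adjusted p = 4.6e-05), and Rbm3 at 59.8, 50.6 and 47.2 CPM and at 114, 109 and 135 CPM (1.18 ± 0.15, adjusted p = 0.000156). The lowest ob/ob heart exceeded the highest WT heart for both. The lower genes were heat-induced chaperones and their helpers: Hsph1 (−0.82 ± 0.15, adjusted p = 0.00224), Dnaja1 (−0.58 ± 0.12, adjusted p = 0.00514), Chordc1 (−0.56 ± 0.09, adjusted p = 0.001) and Hsp90ab1 (−0.43 ± 0.09, adjusted p = 0.00593) among them. Hsph1 was at 39.0, 30.6 and 34.9 CPM in WT and at 20.5, 23.5 and 15.4 CPM in ob/ob hearts. Hspb7, a small heat shock protein of heart muscle, was instead higher by 0.58 ± 0.11 (adjusted p = 0.00258). The count upwards was 3 without WT library 1 or ob/ob library 2, and the count downwards 4 without WT library 3 or ob/ob library 3. Body temperature was not among the measures used here.

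The list of unfolded protein and integrated stress genes had 2 higher and 7 lower members of 26, and 1 and 9 by plain totals. Chac1, which degrades glutathione and is induced by ATF4, lies at chr2:119351229-119354381 on the plus strand. It was at 5.91, 5.39 and 6.25 CPM in WT and at 1.36, 0.710 and 1.69 CPM in ob/ob hearts (−2.19 ± 0.27, adjusted p = 0.000137). Every WT heart was above 3 times the highest ob/ob heart. The folding helpers of the endoplasmic reticulum Pdia4 (−0.79 ± 0.11, adjusted p = 0.000273) and Hyou1 (−0.54 ± 0.10, adjusted p = 0.00309) were lower, as was the stress transcription factor Atf5 (−0.62 ± 0.12, adjusted p = 0.00349). Ddit3, which encodes the stress transcription factor CHOP, went the other way at 12.5, 12.5 and 12.01 CPM in WT and 23.6, 17.96 and 19.8 CPM in ob/ob hearts (0.73 ± 0.14, adjusted p = 0.00338). Ddit3 overlaps Mars, and Atf5 overlaps Nup62, on the opposite strand. The higher count of the list was 1 without ob/ob library 1 and 4 without ob/ob library 3.

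Immediate early genes, switched on within minutes by growth factors, stretch or handling, were higher in 4 and lower in 7 of 19 tested. Fos, at chr12:85473890-85477273 on the plus strand, was at 7.43, 23.2 and 14.9 CPM in WT and at 1.07, 2.03 and 5.07 CPM in ob/ob hearts. Its spread within each genotype was wide, yet the groups did not overlap (−2.42 ± 0.48, adjusted p = 0.0037). Egr1 was at 26.8, 57.1 and 30.7 CPM in WT and at 5.34, 8.52 and 19.7 CPM in ob/ob hearts (−1.74 ± 0.34, adjusted p = 0.0037). Zfp36, which destabilises cytokine messages, was lower (−0.99 ± 0.19, adjusted p = 0.00273), as was the endothelial flow-responsive factor Klf2 (−0.53 ± 0.12, adjusted p = 0.00809). Atf3, at chr1:191170296-191218039 on the minus strand, rose instead: 14.2, 16.6 and 17.3 CPM in WT and 119, 92.3 and 41.4 CPM in ob/ob hearts (2.39 ± 0.34, adjusted p = 0.000377). The 3 ob/ob hearts differed nearly 3-fold among themselves for Atf3, with the lowest still above double any WT heart. Ier3 also rose (0.82 ± 0.15, adjusted p = 0.00214). The count of higher genes was 2 without WT library 3 or ob/ob library 1, and that of lower genes 4 without ob/ob library 2.

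Corticosterone is known to be raised in ob/ob mice but was not among the measures used here. A set of 22 genes known to respond to glucocorticoids was tested. They did not move in 1 direction, with 2 higher and 6 lower. Fkbp5, a co-chaperone that dampens the glucocorticoid receptor, was at 25.1, 43.1 and 30.9 CPM in WT and at 70.4, 64.2 and 67.8 CPM in ob/ob hearts (1.03 ± 0.16, adjusted p = 0.000743). Sgk1, a kinase acting on sodium transport, was at 125, 128 and 114 CPM in WT and at 72.4, 58.7 and 85.97 CPM in ob/ob hearts (−0.76 ± 0.13, adjusted p = 0.00158). Fkbp5 and Sgk1, both textbook targets of the receptor, passed in opposite directions. The part of glucocorticoids in these differences was not tested. Errfi1, an inhibitor of the EGF receptor, and Dusp1, a phosphatase of MAP kinases, were lower (−0.77 ± 0.15, adjusted p = 0.00351, and −0.73 ± 0.15, adjusted p = 0.00585). Without WT library 2 the list had 4 higher and 3 lower, and by plain totals 2 higher and 8 lower.

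Of 23 genes of the oxidative stress response 6 were higher and none lower (median 0.10, and −0.01 by plain totals). Gsta4, which clears the lipid peroxidation product hydroxynonenal, was at 72.7, 59.4 and 68.2 CPM in WT and at 118, 125 and 126 CPM in ob/ob hearts (0.88 ± 0.11, adjusted p = 0.000153). Mgst1, a membrane glutathione transferase, and Nqo1, a quinone reductase under NRF2 control, were higher by 0.53 ± 0.10 (adjusted p = 0.0022) and 0.46 ± 0.10 (adjusted p = 0.00513). Another NRF2 target, Hmox1, overlapped between the genotypes (−0.11 ± 0.28, adjusted p = 0.845). The list's count was 3 without WT library 1 or WT library 3, and 3 by plain totals.

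Leptin acts through its receptor, Lepr, and STAT3. Of 9 tested genes of that pathway 1 was higher and none lower. Lepr was at 5.32, 2.78 and 5.92 CPM in WT and at 7.86, 3.96 and 5.24 CPM in ob/ob hearts, over nearly the same range (0.28 ± 0.27, adjusted p = 0.544). Cish, a feedback inhibitor of cytokine receptors induced by STAT5, was at 39.996, 27.1 and 45.03 CPM in WT and at 58.5, 55.2 and 84.2 CPM in ob/ob hearts (0.82 ± 0.18, adjusted p = 0.00698). Among 21 genes of muscle growth, atrophy and autophagy 3 were higher and 2 lower, beside 6.26% and 6.48% of all genes tested. There was 1 higher without ob/ob library 3, 0 lower without WT library 2, and 1 lower without any 1 ob/ob library. Mstn, myostatin, which limits muscle growth, had 7, 0 and 0 counts in WT and 19, 19 and 19 counts in ob/ob hearts (adjusted p = 0.00466).

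The largest differences of single genes included several outside the lists. Snhg11, a host gene of small nucleolar RNAs at chr2:158375638-158386145 on the plus strand, was nearly silent in WT hearts, with 1, 0 and 2 counts, and had 60, 43 and 103 counts in ob/ob hearts. The summed counts were 206 and 3, and their ratio after each sum was divided by the TMM-scaled library sizes was 75.1 (95% interval 25.3 to 367, counting error only). Trp63, a p53 family transcription factor known from epithelia (chr16:25683763-25892102, plus strand), was at 0.675, 0.628 and 0.334 CPM in WT and at 4.95, 6.90 and 2.03 CPM in ob/ob hearts (3.04 ± 0.44, adjusted p = 0.000405). Every ob/ob heart had at least 3 times the Trp63 of any WT heart. Edn3, the endothelin 3 peptide, was at 1.69, 1.62 and 1.67 CPM in WT and at 11.6, 5.78 and 9.63 CPM in ob/ob hearts (2.44 ± 0.26, adjusted p = 4.6e-05). Cdo1, cysteine dioxygenase of taurine synthesis, was at 2.70, 2.06 and 1.83 CPM in WT and at 10.3, 16.7 and 9.12 CPM in ob/ob hearts (2.44 ± 0.28, adjusted p = 7.27e-05).

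Wdfy1, an endosomal adaptor at chr1:79702262-79776143 on the minus strand that overlaps Mrpl44 on the other strand, was higher too. It was at 4.73, 4.76 and 4.67 CPM in WT and at 19.2, 22.2 and 20.9 CPM in ob/ob hearts (2.14 ± 0.14, adjusted p = 2.23e-07). Sdk2, Fam222a, Kcnk1 and Cbarp were higher too, by 2.67, 2.42, 2.38 and 1.93 on the log2 scale. Cyp1a1, the detoxifying enzyme induced through the aryl hydrocarbon receptor, was higher by 1.995 ± 0.444 but missed the threshold without ob/ob library 3 (adjusted p = 0.0631). Among the decreases, Hmcn2, hemicentin 2 of the matrix, was at 21.01, 23.2 and 24.8 CPM in WT and at 10.7, 6.19 and 4.64 CPM in ob/ob hearts (−1.69 ± 0.26, adjusted p = 0.00055). B3galt2, Apol10b, Scgb1c1 and the myeloid adaptor Dok2 fell by 1.74, 1.69, 1.68 and 1.64. Ccl12, a monocyte chemokine, was lower (−1.81 ± 0.57, adjusted p = 0.0475) and missed the threshold without WT library 2 (adjusted p = 0.283), ob/ob library 1 (0.117), ob/ob library 2 (0.0692) or ob/ob library 3 (0.144).

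On the high-fat diet the same contrast, with 3 other hearts of each genotype, gave 2349 calls (17.2%), 1206 higher (8.82%) and 1143 lower (8.36%), with an unadjusted p under 0.05 for 4386 genes (32.1%) and 2017 calls (14.8%) in DESeq2. The 2349 fell to 1450 without high-fat WT library 1, in which the 8 atrial markers summed to 487.6 CPM, to 1558 without high-fat WT library 2 and to 1348 without high-fat ob/ob library 3. Without that high-fat WT library 1 the normal-diet contrast had 1717 calls. Genes called in the same direction on both diets numbered 961, which is 55.17% of the normal-diet calls and 40.91% of the high-fat calls, and none was called in opposite directions. Of the 1742 genes called on normal diet, 95.41% had the same sign on high-fat diet, against 72.35% of all genes tested.

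Clock and interferon genes were called on both diets. On high-fat diet 11 clock genes were higher and 1 lower, and 17 interferon genes were lower. The clock counts were 7 higher and none lower without high-fat WT library 2 or high-fat ob/ob library 3, and 7 higher and 2 lower without high-fat ob/ob library 1. Per2 was higher by 1.15 ± 0.12 there, Cry2 by 1.15 ± 0.13, and Arntl, not called on normal diet, was lower (−0.82 ± 0.20, adjusted p = 0.0113). Gbp2 gave −1.07 ± 0.14, Bst2 −1.17 ± 0.12 and Col6a3 −1.29 ± 0.15. Ppargc1a (1.24 ± 0.16), Agt (2.02 ± 0.32), Nnt (1.28 ± 0.09) and Wdfy1 (1.97 ± 0.13) were higher on high-fat diet by amounts close to those on normal diet. Nppb, not called on normal diet, was lower on high-fat diet (−1.91 ± 0.30, adjusted p = 0.000663). It was at 121, 123 and 149.9 CPM in high-fat WT and at 44.5, 35.0 and 25.4 CPM in high-fat ob/ob hearts, without overlap. Without high-fat WT library 1 the difference in Nppb was −1.96 (adjusted p = 0.00273). The 8 atrial markers summed to 487.6, 33.97 and 46.8 CPM in high-fat WT and to 47.3, 41.1 and 33.9 CPM in high-fat ob/ob hearts, and of 6 tested 3 were called lower on high-fat diet, or 1 without that library, high-fat ob/ob library 2 or high-fat ob/ob library 3. Of 23 sarcomere genes 10, and of 21 calcium genes 10, were higher on high-fat diet. Without high-fat WT library 1 these counts were 6 and 4, and without high-fat ob/ob library 3 they were 6 and 3. The calcium count was 6 without high-fat WT library 2 or high-fat ob/ob library 2.

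Other genes passed on normal diet and not on high-fat diet, so the difference of the differences was tested. Fos gave −0.76 ± 0.46 (adjusted p = 0.272) on high-fat diet, Zfp36 0.02 ± 0.18 (0.949), Dusp1 −0.07 ± 0.15 (0.785) and Ier3 −0.08 ± 0.15 (0.757). Chac1 gave 0.11 ± 0.29 there (adjusted p = 0.825), G0s2 0.09 ± 0.23 (0.817) and Insr 0.17 ± 0.10 (0.266). In the genotype by diet interaction no gene passed in edgeR, 1087 genes (7.95%) had an unadjusted p under 0.05, DESeq2 called 8 (0.0585%), and edgeR with no low-count filter called 177. Chac1 had an interaction p of 2.57e-05 (adjusted p = 0.117), C7 0.000148 (0.29), Ddit3 0.000451 (0.33), Ier3 0.000509 (0.33), Insr 0.000694 (0.344) and Zfp36 0.00127 (0.408). The smallest adjusted p was that of Cp, ceruloplasmin, at 0.0979, with a log2 difference of −0.24 on normal and 0.49 on high-fat diet. Among immediate early genes 8 of 19, and among glucocorticoid genes 8 of 22, had an unadjusted interaction p under 0.05. The glucocorticoid list had 5 higher and none lower on high-fat diet, against 2 and 6 on normal diet, or 3 higher without high-fat WT library 1 or 3 and 2 without high-fat ob/ob library 2, and no member passed the interaction test after adjustment.

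**Figure D5:**
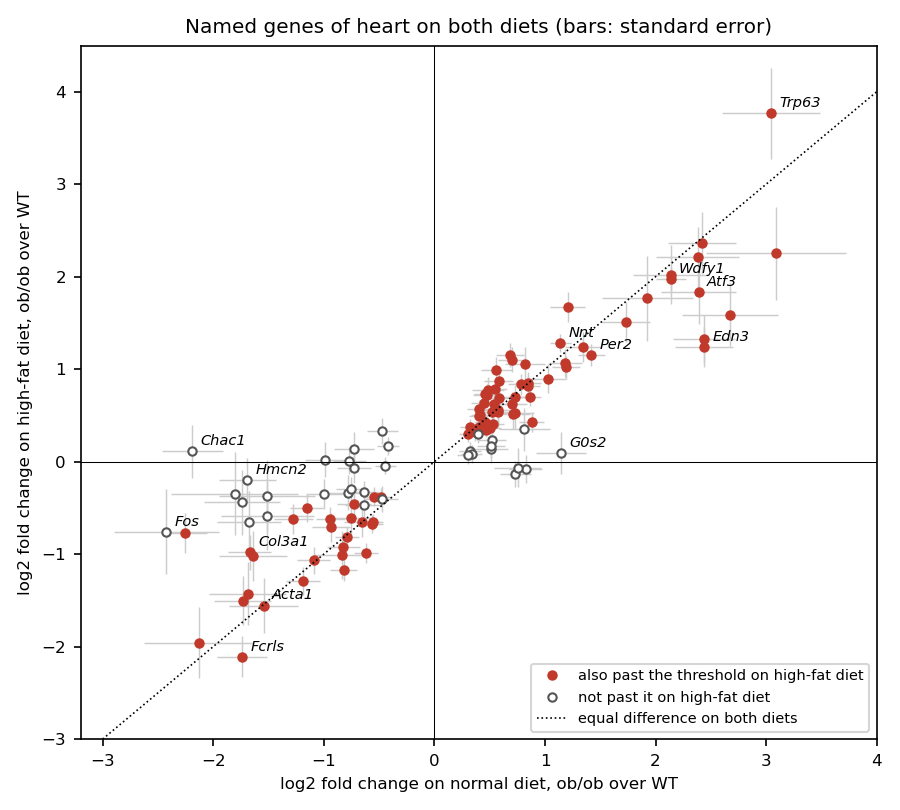
Log2 fold change of ob/ob over WT hearts on normal diet (x axis) and on high-fat diet (y axis) for 113 named genes called on normal diet, with 1 point per gene and bars for the SE. Filled points (80) were also called on high-fat diet and open points (33) were not. The sign was opposite on high-fat diet for 9 genes, none of them called there, and Cyp1a1 and Snhg11 are left out.

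The same contrast, ob/ob against WT on normal diet, was fitted in the 6 other tissues of these mice, where it called 31.7% of the genes tested in aorta, 48.2% in epididymal fat, 3.48% in hippocampus, 5.3% in hypothalamus, 36.4% in liver and 45% in skeletal muscle. Differences between tissues were not tested. Wdfy1 was higher in all 6, by 1.69 ± 0.18 in skeletal muscle to 2.35 ± 0.16 in liver. Nnt was higher in 5, by 0.40 ± 0.10 in epididymal fat to 2.24 ± 0.13 in liver, and gave 0.70 ± 0.63 in skeletal muscle (adjusted p = 0.361). Cirbp was higher in all but aorta (0.59 ± 0.22, adjusted p = 0.0583), and Rbm3 in all but skeletal muscle (0.46 ± 0.24, adjusted p = 0.132). Fkbp5 was higher in all but liver (0.22 ± 0.23, adjusted p = 0.494). Per2 was higher in aorta, hypothalamus, liver and skeletal muscle, by 0.74 ± 0.13 to 1.76 ± 0.20, and gave −0.22 ± 0.16 in epididymal fat (adjusted p = 0.269) and 0.15 ± 0.16 in hippocampus (adjusted p = 0.639).

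Further genes named in the heart gave the following values in these tissues. Gbp2 was higher in liver (1.498 ± 0.32, adjusted p = 0.00265) and skeletal muscle (1.20 ± 0.43, adjusted p = 0.043). Col3a1 was likewise higher in liver (1.37 ± 0.45, adjusted p = 0.0297) and skeletal muscle (1.86 ± 0.44, adjusted p = 0.00863), and did not pass in the other 4. Agt was lower in epididymal fat (−3.76 ± 0.37, adjusted p = 1.89e-05) and did not pass in the remaining 5. Ppargc1a was higher in aorta (1.16 ± 0.25) and liver (1.18 ± 0.19) and lower in skeletal muscle (−2.14 ± 0.62). Atf3 was higher in aorta, epididymal fat, liver and skeletal muscle, by 0.83 ± 0.27 to 2.68 ± 0.49. Fcrls, measured in 5 of the 6, was lower in 4, from −1.08 ± 0.13 in hippocampus to −2.40 ± 0.43 in epididymal fat. Pdia4 was lower in 5 and higher in skeletal muscle (1.34 ± 0.30, adjusted p = 0.00686).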

How the data were processed

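Whole-number fragment counts per Ensembl gene were deposited by the authors. Per the file headers, featureCounts 1.5.1 counted paired-end alignments over GRCm38 exons with no strand or multi-mapping option. The submitters' processing notes name Trimmomatic 0.36, HISAT2 2.0.5 and featureCounts 1.5.0-p2. RNA was isolated with TRIzol and prepared with a TruSeq kit, per the labels' protocols. Phenotype values, of other units, are as the authors deposited them, 1 per mouse. Symbols and coordinates (GRCm38) come from the reference tables, which named 49326 of 49671 genes.

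All 12 heart libraries were fitted together in edgeR 4.0.16 (R 4.3.3) with 1 mean per group (4 groups, 3 libraries in each), TMM scaling and filterByExpr (smallest count 10, smallest total 15). The quasi-likelihood test was adjusted by Benjamini-Hochberg over all genes, with a threshold of 0.05. In simulated counts of this comparison over 13526 genes, 56.7% of 1.5-fold, 83.6% of 2-fold and 98.5% of 4-fold changes were recovered. Of 172 simulated calls, 13 were of genes left unchanged. The changed genes were drawn from those above a minimum CPM, so these rates do not cover low-count genes. Only 67, 67 and 66 genes were changed at the 3 sizes, far fewer than the 1742 called in the data. The recovery rates may therefore differ in the data. Replicates all differed by more than counting noise (chi-square over its degrees of freedom 6.08 to 13.5). CPM are relative to TMM-scaled library sizes.

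The comparison, the 28 gene lists, the 16 marker lists and the naming rule were chosen with earlier results of these data known. The rule starts from called genes whose genotypes do not overlap, with a mean logCPM of 1 or more and no clone or model number as symbol. Of these it names the 12 highest and 12 lowest log2 fold changes. It adds up to 4 members of each list with the smallest p, and Lep, Lepr and Nnt. For the interaction it asks for an adjusted p under 0.05, which no gene reached in the main fit. Further list members, Wt1, Postn and other genes that did not pass were chosen after their values were seen. Which genes are given with an interaction p was chosen in the same way. A few list members, kept in the counts, are not reported here. DESeq2 1.42.0, other scalings, no filter, fewer libraries and a replicate block were the alternatives.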

Additional observations from a re-analysis of the deposited data

How the results depend on the processing

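Of 207 called genes that are named or listed, 104 kept their call in every setting and none changed sign. DESeq2 lost 9 of these calls, DESeq2 size factors in edgeR 1, no filter 5, the 6 normal-diet libraries alone 17, plain library totals 31, leaving out high-fat WT library 1 (an alternative chosen after seeing the data) 5, and each normal-diet library left out 52 to 67. Plain totals gave 418 higher and 1477 lower calls. With 1 library left out, calls numbered 1108 to 1717, higher calls 517 to 864 and lower calls 567 to 853, the upper ends being those without high-fat WT library 1. On high-fat diet they numbered 1348 to 1872, and the interaction had 0 to 1. The interaction had 8 calls in DESeq2 and 177 without the filter. Free fatty acids, with 2 ob/ob values, ran from −50.67 (without ob/ob mouse 2) to 219.3 uEq/L with 1 mouse left out, glucose from −51.5 to 14 mg/dL and lean mass from −0.348 to 1.15, so their direction is not settled. Lepr ran from −0.0201 to 0.4816 on the log2 scale with 1 library left out, and Adipor2 turned to −0.0155 by plain totals; neither was called. Replicate numbers do not pair the hearts (correlation of same-numbered deviations −0.0943 to 0.1404 over 18 pairs). The fit with a replicate block called 1741 genes on normal diet, 856 higher and 885 lower, 2368 on high-fat diet and 0 in the interaction, and lost 5 of the 207 calls. With 3 hearts a group, 1.5-fold differences were often missed in simulated counts, so a gene not called may still differ.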
